A study of Mus musculus with 316 samples.

Results

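Engrafted embryonic stem cell-derived blood cells (Eng_ES-HSC) that yielded few genes were compared with the richer cells of the same group, and the lineages that the gene-poor cells showed were described. Each cell was placed by 1 count, the number of mouse genes at a TPM of 1 or more. TPM is a transcript abundance corrected for transcript length. Cells with fewer than 1000 such genes are called low here and the others richer. Of 47 Eng_ES-HSC cells, 26 were low and 21 were richer, among 313 cells of the whole series. The split was made on a measured value, so gene number is a description, and every comparison that follows describes these cells without a test.

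The series profiled single mouse cells from 4 groups by RNA sequencing of polyA RNA. ESC are embryonic stem cells, which are pluripotent and kept in culture. FL_HSC cells are haematopoietic stem cells from fetal liver, the blood-forming cells that can rebuild the blood after transplantation, and Eng_BM-HSC cells are bone marrow-derived stem cells that had engrafted. Eng_ES-HSC cells were derived from embryonic stem cells and had then engrafted, and by its title the series is about the lymphoid potential that Notch activation gives such cells. The labels used here give no strain, genotype, age, host, culture or sort gate, and no animal or culture that a cell came from. A group was therefore treated as 1 sample, and cells are not replicates of it. Titles give only a group name and a number, so between groups a library batch and the cell type cannot be told apart. Low and richer Eng_ES-HSC cells share 1 group name.

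Blood lineages can be recognised from abundant specialised transcripts. Maturing granulocytes make the calprotectin subunits S100a8 and S100a9 and load their granules with proteases and antimicrobial proteins. Red cell precursors fill with haemoglobin, and their globin transcripts outlast most others as the nucleus is lost. T cells carry the CD3 chains of the antigen receptor complex and the kinase Lck. Stem cells lack these products and are known by surface proteins such as Kit, Cd34 and Procr and by transcription factors such as Meis1, Erg and Mecom.

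The low cells had from 201 to 999 genes, with a median of 562.5. The richer cells had from 1010 to 3970, with a median of 1609. No gap separated the classes: the 3 low cells nearest to the limit had 973, 995 and 999 genes, and the 3 nearest richer cells had 1010, 1036 and 1059. Cells 31 and 34 were near-identical (Pearson r = 0.988) and were averaged to 1 low cell with 995 genes, although singly they had 968 and 1016. Cells 33 and 36 (r = 0.973) were averaged to 1 richer cell with 3357 genes. The abundance of a low cell was held by few genes. The 10 most abundant genes of a low cell held from 25.8% to 95.5% of its mouse TPM, with a median of 47.6%. In richer cells they held from 16.3% to 75.1%, with a median of 34.5%, so the ranges overlapped widely.

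**Figure D1:**
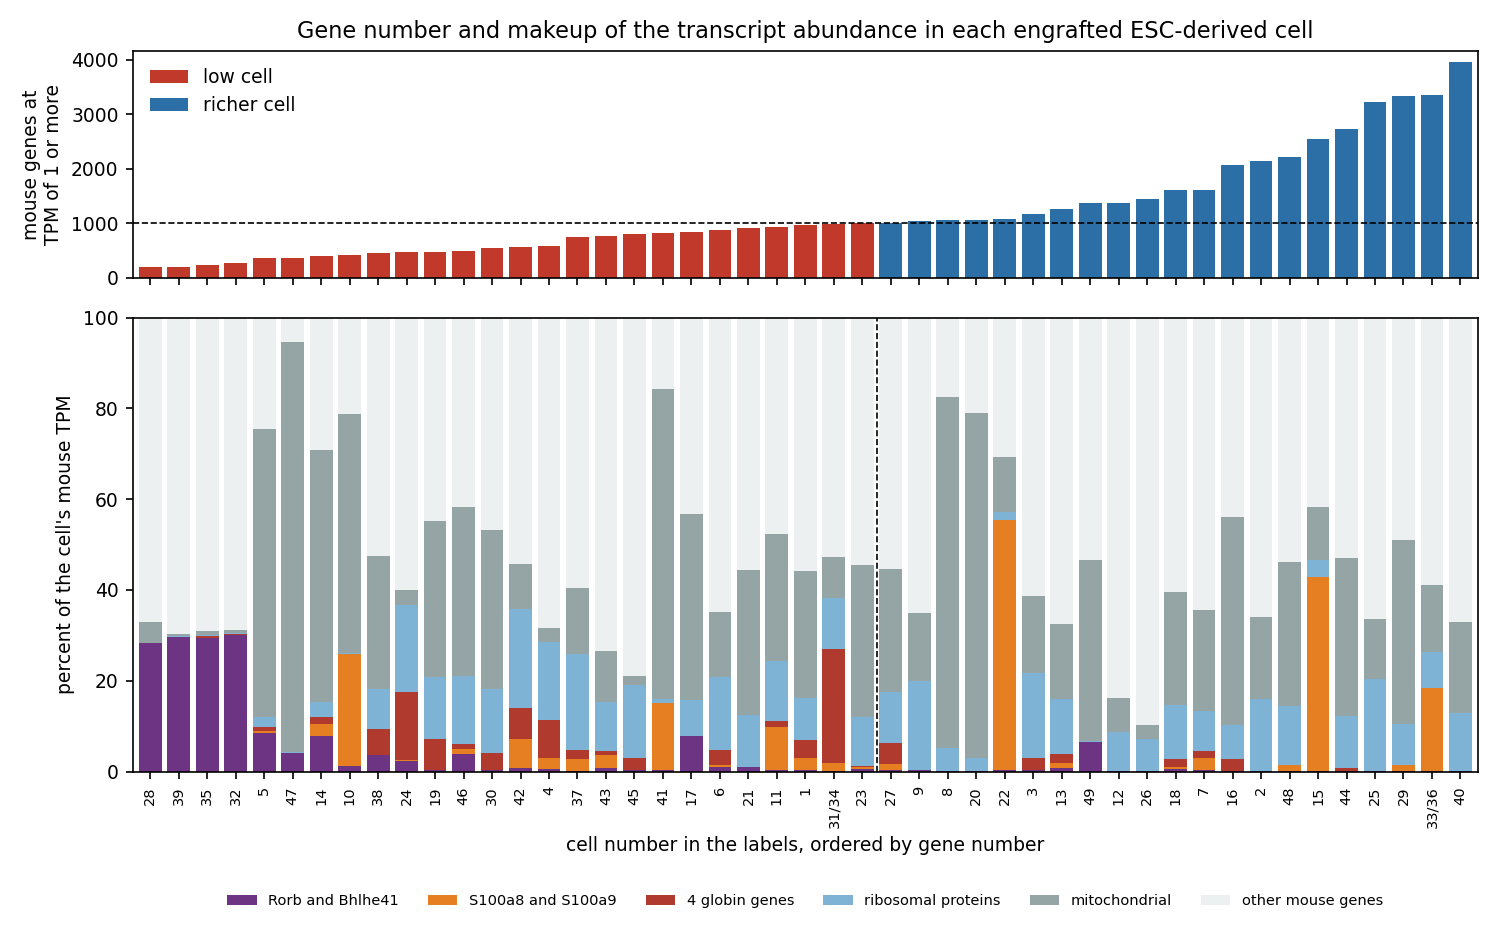
Upper bars give the number of mouse genes at a TPM of 1 or more in each of the 47 Eng_ES-HSC cells, ordered by that number, with a dashed line at 1000, and lower stacked bars give the percent of each cell's mouse TPM in 5 gene classes and the rest. In the 4 cells with 201 to 280 genes, Rorb and Bhlhe41 hold 28.2% to 29.99%, while the other low cells mix mitochondrial, ribosomal protein, calprotectin and globin transcripts.

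The 4 cells with the fewest genes showed an abundance pattern of their own, with very abundant transcripts of genes that mark no blood lineage. Cells 28, 39, 35 and 32 had 201, 203, 237 and 280 genes. Rorb, a retinoid-related orphan nuclear receptor, stood at 168465, 108216, 141924 and 143762 TPM in them, or 20.9%, 15.004%, 19.6% and 19.7% of their mouse TPM. Bhlhe41, a repressor of the circadian clock, stood at 59174, 106160, 71327 and 75418 TPM. Rorb was above Bhlhe41 in all 4 cells, and together they held 28.2% to 29.99%. Mitochondrial genes left out, the 20 analysed genes with the highest mean TPM held 41.1% of the mean mouse TPM. Most of the abundance of these 4 cells therefore lay outside those 20 genes. Ogfrl1, which encodes an opioid growth factor receptor-like protein, stood at 12807, 46193, 17756 and 18850 TPM, highest in cell 39. Blood transcripts were present at lower levels: Hba-a2, an alpha globin gene, stood at 0, 0, 1902 and 227 TPM in the same order of cells, and the chemokine gene Ccl5 at 225, 204, 0 and 0 TPM. Mitochondrial transcripts held only 0.468% to 4.54% of these 4 cells, against a median of 27.95% over all low cells.

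Many abundant genes of these 4 cells share a sequence feature, a long run of A or of T in an annotated transcript, and the windows below show where that run begins in 4 of them, a pair with T and a pair with A. Each line gives 8 transcript bases in lower case and then, in capitals, the first 22 bases of the run, 5′ to 3′ on the transcript strand, from the 3′ UTR of a GENCODE M21 transcript. The annotation used by the authors is not given in the sources used here.
Rorb: ttcttttcTTTTTTTTTTTTTTTTTTTTTT
Bhlhe41: aacattacTTTTTTTTTTTTTTTTTTTTTT
Ogfrl1: aaagaagtAAAAAAAAAAAAAAAAAAAAAA
Slx1b: aaaaaaccAAAAAAAAAAAAAAAAAAAAAA

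On GRCm38 and all on the minus strand, the Rorb run covers 47 bases of T at chr19:18936158-18936204 and the Bhlhe41 run 39 bases of T at chr6:145862019-145862057. The Ogfrl1 run covers 43 bases of A at chr1:23369700-23369742 and the Slx1b run 45 bases of A at chr7:126690462-126690506. Of the 20 analysed genes with the highest mean TPM over the 4 cells, mitochondrial genes left out, 19 had an annotated transcript, and 14 of these held a run of at least 25 A or 25 T. Over all 21067 annotated genes, 463 (2.20%) held such a run. Runs were searched on the transcript strand only, as A or as T, in every annotated transcript of a gene. The exceptions among the top 20 were Mitd1, Gprc5c, Gm20594, Rps6 and Hba-a2, with longest runs of 9, 21, 7, 5 and 4 bases. A run is a property of the annotated sequence, and its part in these abundances was not tested.

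Genes with long runs were also among those that low cells had most often. Of the analysed genes, leaving out small RNA, ribosomal protein, mitochondrial and predicted genes, 17 were detected in 26 of 26 low cells. The 10 of these with the highest mean log2(TPM + 1) in low cells were Bhlhe41, Rorb, Actb, Ogfrl1, Slx1b, Gprc5c, Npffr1, Rbm33, Exoc8 and Cdv3. Of genes with a longest run under 10 bases, 0.374% were detected in at least 13 of the 26 low cells. That share was 12.5% for runs of 25 to 29 bases, 30.8% for 30 to 39 and 40% for 40 or more, where 20 genes were counted. In at least 11 of the 21 richer cells the matching shares were 2.18%, 16.96%, 28.04% and 40%, so the gradient was present in both classes.

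The share of mouse TPM in Rorb and Bhlhe41 ran from 0.175% to 29.99% in low cells, with a median of 0.946%. In richer cells it ran from 0.0608% to 6.49%, with a median of 0.170%. Its rank correlation with gene number over the 47 cells was -0.79 (Spearman), given as a description, since both measures come from the same libraries. These genes were not particular to low cells, since both were detected in 313 of 313 cells of the series. The share reached 17.9% in an FL_HSC cell and 24.8% in an Eng_BM-HSC cell with 1000 genes or more, and 0.717% in ESC.

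**Figure D2:**
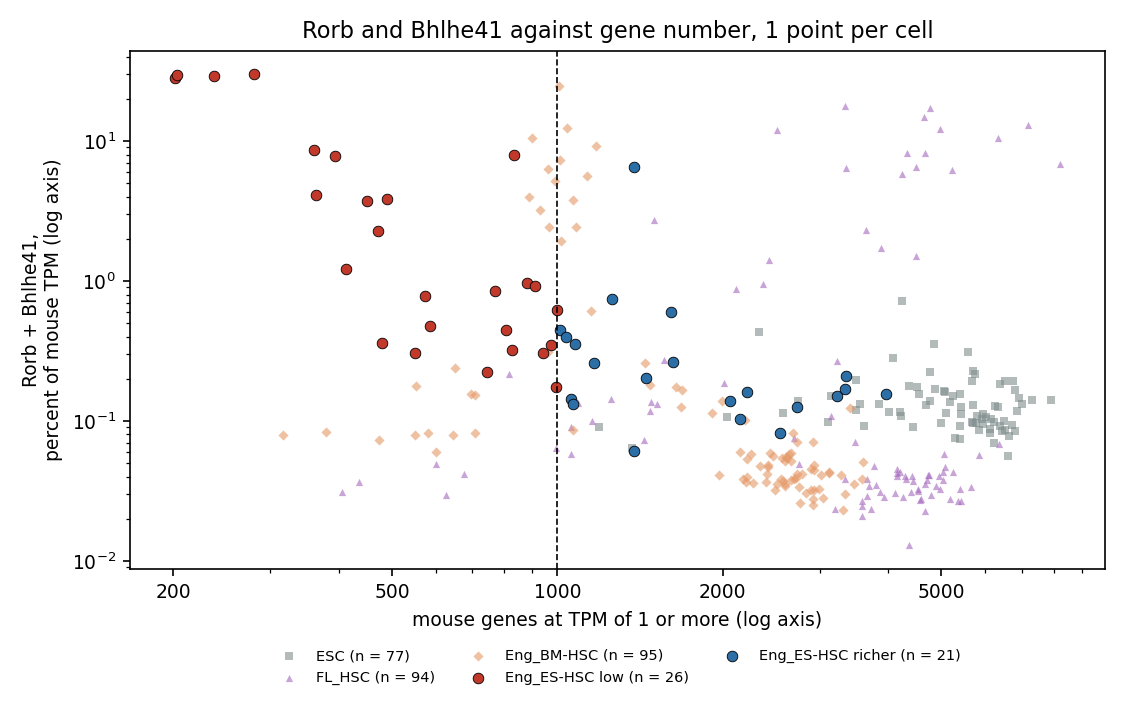
Each point is 1 cell, with its number of mouse genes at a TPM of 1 or more on a log x axis and the percent of its mouse TPM in Rorb and Bhlhe41 on a log y axis, and the dashed line marks 1000 genes. Low Eng_ES-HSC cells run from 0.175% to 29.99%, and the 4 cells with the fewest genes, at 28.2% or more, lie above every other cell, the nearest being an Eng_BM-HSC cell at 24.8%.

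Most low cells showed blood transcripts. A cell was taken to show a lineage list when at least 3 of its markers stood at a TPM of 10 or more. By that count 22 of 26 low cells (84.6%, exact 95% interval 65.1 to 95.6) showed at least 1 of 10 blood lists, as did 19 of 21 richer cells (90.5%, 69.6 to 98.8). In ESC, which should lack blood markers, it was 4 of 77 cells (5.19%, 1.43 to 12.8). The intervals are Clopper-Pearson intervals and cover counting error only. The depth of each cell is unknown, since TPM keeps no read counts.

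Granulocyte transcripts were the most widespread myeloid signal in low cells. The granulocyte list was shown by 13 of 26 low cells (50%, 29.9 to 70.1) and by 12 of 21 richer cells (57.1%, 34.02 to 78.18), with broadly overlapping intervals, and by 0 of 77 ESC, which allows a share of up to 3.90%. Limits given for a count of 0 take 3 cells of the total, a different rule from the exact intervals, and also cover counting error only. S100a8 (chr3:90668978-90670035) ran from 0 to 70876 TPM in low cells with a median of 1631, and from 0 to 238144 in richer cells with a median of 661. S100a9 (chr3:90692632-90695721) ran from 0 to 120955 TPM in low cells with a median of 100.5, and from 0 to 256334 in richer cells with a median of 22.7. One or both calprotectin genes stood at 10 TPM or more in 22 of 26 low cells (84.6%, 65.1 to 95.6) and in 16 of 21 richer cells (76.2%, 52.8 to 91.8). Both were at 0 in all 77 ESC and all 94 FL_HSC cells.

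Low cells 10 and 41 held a large share of their TPM in calprotectin transcripts. In cell 10, with 412 genes, S100a8 and S100a9 held 24.7% of the mouse TPM. In cell 41, with 825 genes, they held 14.8%, beside 7643 TPM of the neutrophil granule protein Ngp, 4789 TPM of the cathelicidin Camp and 4622 TPM of lactoferrin (Ltf). These 2 cells had 52.7% and 68.3% mitochondrial TPM, and their Hba-a2 stood at 17.1 and 0 TPM. In richer cells the highest calprotectin shares were 55.1% in cell 22 and 42.9% in cell 15.

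Granule genes of early and later stages were found in some low cells, apart or together. Ctsg, Elane and Mpo encode enzymes of primary granules, which are filled early in granulocyte maturation. Cell 23, with 999 genes, had 21099 TPM of Ctsg, 3449 of Elane and 998 of Mpo, with Camp at 0. Cell 11, with 941 genes, had 2619 TPM of Elane and 998 of Mpo beside 68603 of S100a9. At least 2 of these 3 genes reached 10 TPM in 3 of 26 low cells and 6 of 21 richer cells. At least 2 of the later granule or secretory genes Camp, Ngp, Ltf and Chil3 did so in 5 of 26 low cells and 4 of 21 richer cells. Both conditions were met in 2 low cells, cells 41 and 11, and in 1 richer cell. Prtn3, another early protease, was detected in no low cell and in 3 richer cells, a direction that the choice by gene number favours.

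Monocyte and macrophage markers were scarce. Their list was shown by 0 of 26 low cells, which allows a share of up to 11.5%, and by 5 of 21 richer cells (23.8%, 8.22 to 47.2). Lysozyme (Lyz2), which granulocytes also make, stood at 10 TPM or more in 8 low and 9 richer cells, up to 27544 TPM in low cell 38. Csf1r, the receptor for macrophage colony-stimulating factor, the lipopolysaccharide receptor Cd14, the lysosomal protease Ctss and Mpeg1 were detected in no low cell and in 3, 3, 5 and 5 richer cells. Class II antigen presentation genes reached 10 TPM in no low cell and in 4 richer cells. The choice by gene number favours such absences, so nothing is read from them. Of 12 tested monocyte and macrophage genes, 4 were lower in low cells by at least 1 log2 unit, against 27.5% of all tested genes. Their median difference was -0.80, beside -0.58 for all genes.

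**Figure D3:**
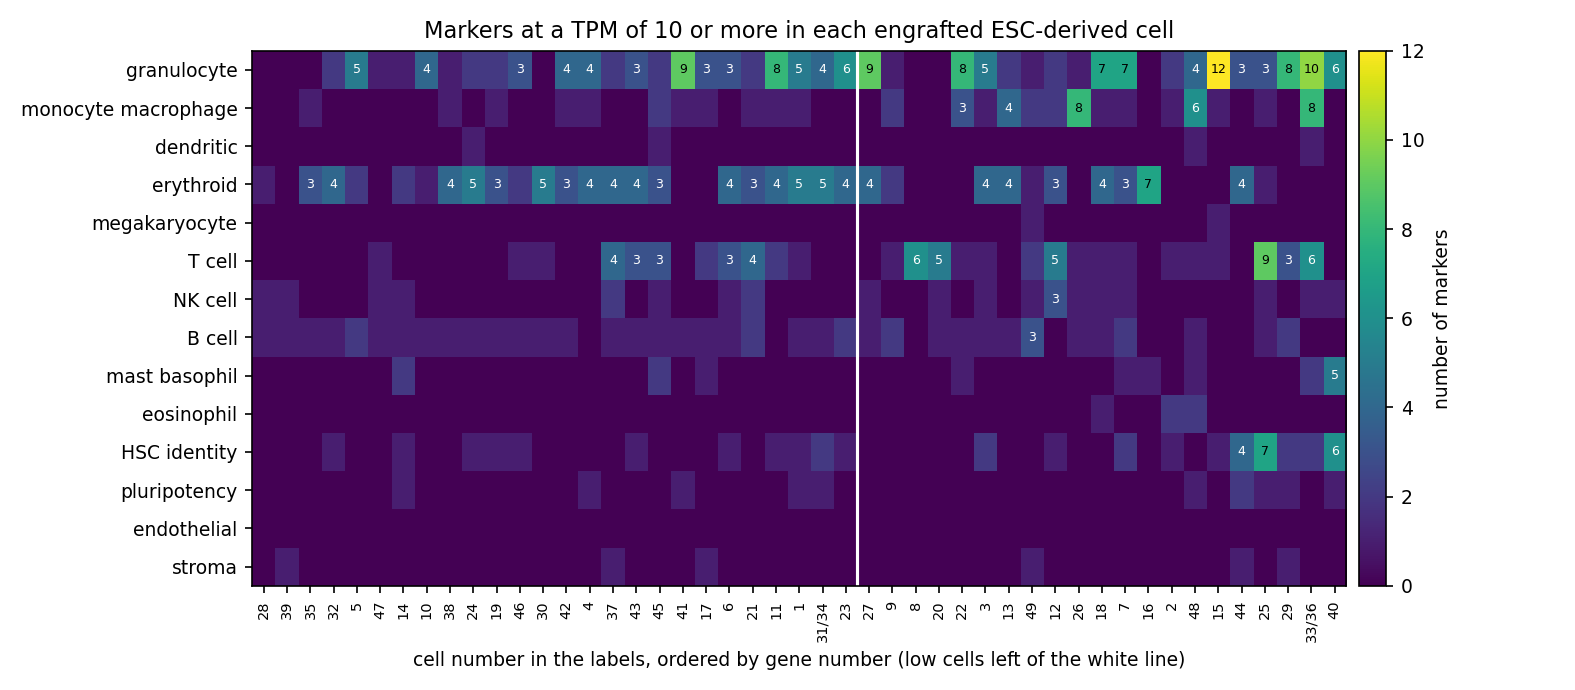
Colour gives the number of markers of each list at a TPM of 10 or more in each Eng_ES-HSC cell, with the number printed where it is at least 3, and cells ordered by gene number. Low cells, left of the white line, reach 3 markers in the granulocyte, erythroid and T cell lists, while richer cells also reach 3 in the monocyte, NK cell, B cell, mast or basophil and HSC lists.

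Globin transcripts were present in most low cells and in a minority of richer cells. The share of mouse TPM in globin followed gene number only weakly. Its rank correlation with gene number over the 47 cells was -0.27 (Spearman), and that of the calprotectin share was 0.07, both given as descriptions. Hba-a2, an alpha globin gene (chr11:32296489-32297298), ran from 0 to 121372 TPM in low cells with a median of 4319, and from 0 to 18971 TPM in richer cells with a median of 0.00382. It stood at 10 TPM or more in 21 of 26 low cells and 9 of 21 richer cells. The matching counts were 17 and 8 cells for Hba-a1 (chr11:32283511-32284465), 15 and 6 for the beta globin gene Hbb-bs (chr7:103826534-103828096), and 11 and 5 for Hbb-bt. Either alpha globin gene reached 10 TPM in 80.8% of low cells (60.6 to 93.4) and 42.9% of richer cells (21.82 to 65.98), and these intervals overlap. Where Hba-a2 was present at that level, its median was 9065 TPM in low and 2965 TPM in richer cells, and the ranges overlapped. The 9 richer cells with alpha globin had from 1010 to 2730 genes. In ESC, Hba-a2 was detected in 0 of 77 cells and Hba-a1 in 1.

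The erythroid list was shown by 17 of 26 low cells (65.4%, 44.3 to 82.8) and by 8 of 21 richer cells (38.1%, 18.1 to 61.6), and in low cells it rested on globin. Without the 4 globin genes no low cell showed it. Detected in no low cell were Alas2, the erythroid enzyme of haem synthesis, Slc4a1, the red cell anion exchanger, and Epor, the erythropoietin receptor. At least 1 of them was detected in 3 of 21 richer cells. The choice by gene number favours such absences, so nothing is read from them. Hba-a1 and Hba-a2 transcripts are 99.8% identical over 538 aligned bases, and those of Hbb-bs and Hbb-bt 93.1% identical over 625, so the split of reads within each pair is uncertain and the 4 genes amount to an alpha and a beta signal. Because the list rested on globin in them, the low cells that showed it are called globin-positive here. Whether they are erythroid was not decided.

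Cell 30, with 551 genes, had the highest level of red cell transcripts other than globin. It had 19142 TPM of the carbonic anhydrase Car1 (chr3:14766216-14808368), 11696 TPM of Hemgn, a nuclear protein of red cell precursors, 15772 TPM of Hba-a2 and 12818 TPM of Hba-a1, with S100a8 and S100a9 at 0. Car1 reached 10 TPM in 5 low cells and 3 richer cells, and Hemgn in 3 and 1. The averaged cell 31 and 34 had the highest globin share, 25.1% of its mouse TPM, beside 1.73% in S100a8 and S100a9.

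T cell transcripts occurred in a minority. The T cell list was shown by 5 of 26 low cells (19.2%, 6.55 to 39.4), by 6 of 21 richer cells (28.6%, 11.3 to 52.2) and by 2 of 77 ESC (2.60%, 0.316 to 9.07). Some markers of the list were also found in many ESC, such as Cd3d in 48 and Tcf7 in 46 of 77 cells. Without the members that stood at 10 TPM or more in over 10% of ESC, 11.5% of low cells showed the list, and 7.69% did when 4 markers of the whole list were needed. Cd3e, a signalling chain of the antigen receptor complex, was detected in 2 low cells, 7 richer cells and 1 ESC. In low cell 21, with 911 genes, the chemokine Ccl5 (chr11:83525778-83530518) stood at 101790 TPM, with 1177 TPM of Lck, 60.3 of Cd3d and 286 of granzyme B (Gzmb). Cell 37 had 1316 TPM of Lck, 342 of Cd3g, 14143 of Ccl5 and 1244 of Gzmb. Cell 45 had 24936 TPM of the adhesion receptor Cd2 and 703 of Cd3g. Ccl5 and Gzmb are markers of the NK cell list. That list was shown by 0 of 26 low cells, which allows a share of up to 11.5%, and by 1 of 21 richer cells. With 2 markers enough, 7.69% of low cells showed the NK cell list. Cd28, Cd8b1 and the transcription factor Tcf7, also on the T cell list, were detected in no low cell and in 4, 6 and 5 richer cells. The choice by gene number favours that direction. Of the early lymphoid genes, the interleukin 7 receptor Il7r was detected in 2 low and 6 richer cells, and Ikzf1 in 1 and 7.

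The lineages were mixed within low cells. A calprotectin gene and an alpha globin gene both stood at 10 TPM or more in 19 of 26 low cells (73.1%, 52.2 to 88.4) and in 7 of 21 richer cells (33.3%, 14.59 to 56.97). Calprotectin without alpha globin was found in 3 low and 9 richer cells, alpha globin without calprotectin in 2 and 2, and neither in 2 and 3. One of the CD3 chains reached 10 TPM in 8 low and 7 richer cells. All 8 such low cells also had both calprotectin and alpha globin at that level, whereas 1 of the 7 richer cells did. Among the CD3 chains, Cd3d was also found in ESC, and the T cell list was shown by only 5 of 26 low cells. At least 2 blood lists were shown by 11 of 26 low cells (42.3%, 23.4 to 63.1) and 13 of 21 richer cells (61.9%, 38.4 to 81.9). In low cells the list pairs were granulocyte with erythroid in 8 cells, erythroid with T cell in 5 and granulocyte with T cell in 2. Doublets were not called, since no counts were used here, and whether free RNA or more than 1 cell entered a library was not tested.

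**Figure D4:**
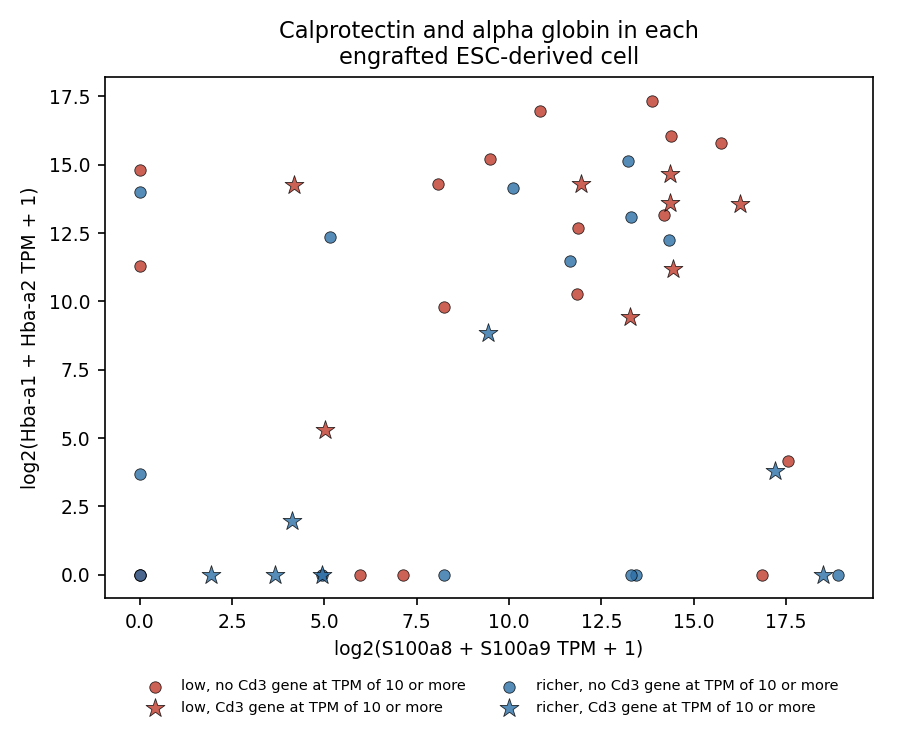
Each point is 1 Eng_ES-HSC cell, with log2 of the summed S100a8 and S100a9 TPM plus 1 on the x axis and log2 of the summed Hba-a1 and Hba-a2 TPM plus 1 on the y axis, and stars mark cells with a CD3 gene at a TPM of 10 or more. Of the low cells, 19 of 26 have both signals, including all 8 stars. Of the richer cells, 9 of 21 have calprotectin without alpha globin and lie at or near the bottom edge. A star can rest on Cd3d, which was also found in ESC.

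The stem cell list was not shown by low cells. The HSC list was shown by 0 of 26 low cells, which allows a share of up to 11.5%, and by 3 of 21 richer cells (14.3%, 3.05 to 36.3), against 5 of 19 low Eng_BM-HSC cells (26.3%, 9.15 to 51.2) and 1 of 7 low FL_HSC cells (14.3%, 0.361 to 57.9). The richer cells of those groups that showed it were 72 of 76 Eng_BM-HSC cells (94.7%, 87.1 to 98.5) and 79 of 87 FL_HSC cells (90.8%, 82.7 to 95.9). Cd34, Procr, Meis1, Erg, Mecom, Angpt1 and Adgrg1 were detected in no low cell, and Kit, the stem cell factor receptor, was also detected in none and in 5 richer cells. Gata2 was detected in 2 low and 7 richer cells, and Lmo2 in 3 and 6. The list is not specific to HSC: 57 of 77 ESC (74.03%, 62.77 to 83.36) showed it, through genes they share such as Kit, Ifitm1, Ly6a and Mycn. Absences of this kind are favoured by the choice by gene number, so nothing is read from them about the HSC label of low cells. A transcript at 0 may have been below detection, and few low cells of the other groups showed the list either.

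B cell, platelet, dendritic, eosinophil, endothelial and stromal markers were near absent. The B cell list was shown by 0 of 26 low and 1 of 21 richer cells. Its near-universal single marker was Ebf1, a transcription factor of B cell precursors, which was detected in 26 of 26 low cells and 21 of 21 richer cells and also in 71 of 77 ESC. The Ebf1 transcript has a longest run of 30 bases, and Cd79a, Cd79b, Ms4a1 and Pax5 were detected in none of the 47 Eng_ES-HSC cells. Cxcr2, on the granulocyte list, was likewise detected in 14 low cells, 18 richer cells and 77 of 77 ESC, and without such shared members the granulocyte list was still shown by 46.2% of low cells. No low cell had a megakaryocyte, eosinophil or endothelial marker at 10 TPM. The pluripotency genes Pou5f1, Sox2 and Zfp42 were at 0 in every low and richer cell. The mast cell tryptase Tpsb2 reached 10 TPM in 2 low cells and 1 richer cell.

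**Figure D5:**
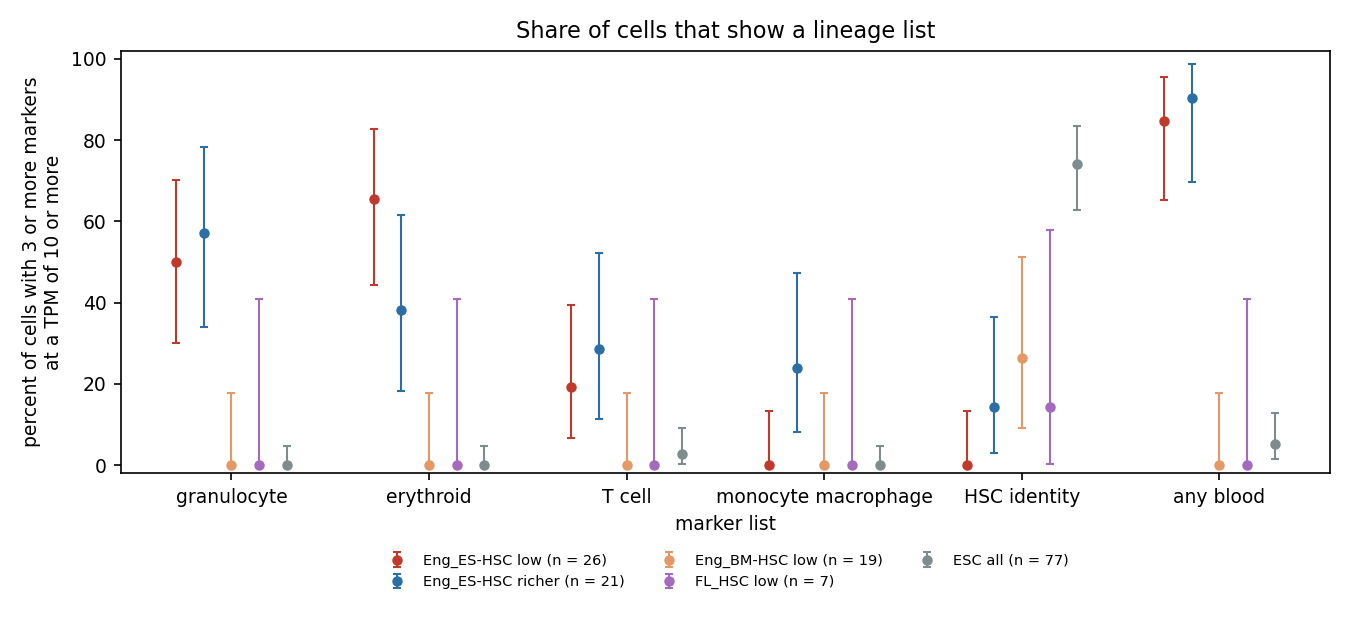
Points give the percent of cells with at least 3 markers of a list at a TPM of 10 or more, and bars are exact 95% Clopper-Pearson intervals for counting error, for low and richer Eng_ES-HSC cells, low Eng_BM-HSC cells, low FL_HSC cells and all ESC. Low Eng_ES-HSC cells stand at 50% for the granulocyte list and 65.4% for the erythroid list, where the other low cells and ESC stand at 0%.

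Low cells of the other groups did not show these lineages. There were 19 low Eng_BM-HSC cells with 317 to 988 genes and 7 low FL_HSC cells with 405 to 995. None of the 10 blood lists was shown by any of them, which allows shares of up to 15.8% and 42.9%. Cells of these groups with 1000 genes or more did show some of them: at least 1 blood list was shown by 9 of 76 richer Eng_BM-HSC cells (11.8%, 5.56 to 21.3) and 39 of 87 richer FL_HSC cells (44.8%, 34.1 to 55.9), the granulocyte list by 5 and 9, the erythroid list by 1 and 17 and the T cell list by 0 and 0. In all 26 low cells of these groups S100a8 and S100a9 were at 0. The globin share of those low cells reached 0.0179% in marrow and 0.151% in fetal liver. Mitochondrial genes held a median of 95.4% of the mouse TPM in low Eng_BM-HSC cells and 99.2% in low FL_HSC cells, against 27.95% in low Eng_ES-HSC cells, where the range was 0.468% to 90.3%. A library batch cannot be told apart from the group here, and its part in these differences was not tested.

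Across the transcriptome, most genes were lower in low cells, as the choice by gene number makes likely. Mean log2(TPM + 1) was compared over the 7485 genes whose TPM averaged 1 or more in either class. It was higher in low cells by at least 1 for 69 genes (0.922%) and lower by at least 1 for 2057 genes (27.5%), with a median difference of -0.58. Because the cells were chosen on gene number, nothing is read from these shares. When means were taken before the logarithm, 1192 genes were higher and 5186 lower, so the split depends on that order.

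Among the analysed genes, the largest differences towards low cells were in globin and long-run genes. Hba-a2 was higher by 4.88 log2 units, Ogfrl1 by 3.83, Rbm33 by 3.55, Hba-a1 by 3.43, Acnat1 by 3.24, Rorb by 3.19, Hbb-bs by 3.04, Npffr1 by 2.93, Slx1b by 2.92 and Exoc8 by 2.82. Leaving aside the 3 globin genes, 6 of these have annotated runs of 25 bases or more, and the longest run of Exoc8 is 10 bases. Ogfrl1 ran from 22.8 to 46193 TPM in low cells with a median of 278, and had a median of 21.7 TPM in richer cells. Actb, the cytoskeletal actin, was present in every cell, at a median of 6124 TPM in low and 11082 TPM in richer cells.

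The 10 largest differences the other way, again in a direction that the choice by gene number favours, were of 5.08 log2 units or more. Actr2, a subunit of the actin-nucleating Arp2/3 complex, was lower by 6.51 log2 units and was detected in 6 of 26 low and 18 of 21 richer cells. The antioxidant enzyme Gpx1 was lower by 5.58, with medians of 9.88 and 4554 TPM. Arhgdib, an inhibitor of small GTPases in blood cells, was lower by 5.57, with medians of 4.599 and 1392 TPM. The chaperones Hspa8 and Hsp90aa1 were detected in 4 and 2 low cells and in 16 and 14 richer cells. Tmem50a, Cox8a, Myl6, Oaz1 and Arglu1 completed the 10 genes with the largest differences in this direction, by 5.08 to 5.38 log2 units.

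Among the gene lists, general leukocyte genes had the largest median difference on the mean log2(TPM + 1) scale. With TPM averaged before the logarithm their mean difference was -1.83, and 8 lists stood further apart, with class II genes the furthest at -6.44. Of 16 measured pan-leukocyte genes, 15 were lower by at least 1, against 27.5% of all tested genes, and 0 higher, with a median difference of -2.96 beside -0.58 for all genes. Ptprc, which encodes the leukocyte antigen CD45, reached 10 TPM in 2 of 26 low cells and 8 of 21 richer cells. The signalling adaptor Tyrobp was detected in 3 low and 9 richer cells. Of 15 housekeeping genes 10 were lower and 0 higher, with a median difference of -2.18, although the mean difference of that list shrank from -2.05 to -0.16 when TPM was averaged before the logarithm. Of the tested class I antigen presentation genes 10 of 12 were lower, proliferation genes 13 of 17, immediate early genes 10 of 13 and heat shock genes 6 of 8, and none of these lists had a gene higher by 1. These counts also stand beside the 27.5% over all genes, and since the cells were chosen on gene number nothing is read from them. B2m, the class I light chain, remained abundant in some low cells, with a median of 602 and a highest value of 79872 TPM, and was the highest named gene in 6 of them. Of 6 tested Notch genes, 1 was lower by at least 1 log2 unit, against 27.5% of all tested genes, and 0 higher. Notch2 was detected in 6 low and 12 richer cells. The target gene Hes1 and the DNA-binding cofactor Rbpj were detected in no low cell and in 2 and 3 richer cells. That direction is favoured by the choice by gene number, so nothing is read from it.

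By lineage, 8 of 16 tested granulocyte genes were lower by at least 1 and 0 higher, with a median difference of -0.89. For the erythroid list 4 of 10 were higher, all 4 of them globins, and 0 lower, with a median difference of 0.53. The mean difference of that list was 0.80. Over the alternatives it ran from 0.37 in odd-numbered cells to 1.64 with genes of mean TPM of at least 10 only. For the T cell list 5 of 16 were lower and 0 higher, with a median difference of -0.57, beside -0.58 for all genes. Of all tested genes 27.5% were lower and 0.922% higher, so the T cell share lower was near that of all genes.

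The analysed gene with the highest TPM in each low cell, leaving out predicted, mitochondrial and ribosomal protein genes, traced the same range of states. It was Rorb or B2m in 6 low cells each, Hba-a2 or S100a9 in 2 each, and in 1 cell each S100a8, Hba-a1, Car1, Ccl5, Arhgdib, Bhlhe41, Cks2, Cox6a1, Cst7 and H2afz. Cks2, a regulator of cyclin-dependent kinases, stood at 42406 TPM in cell 1 and was detected in 3 low and 14 richer cells. Cst7, a cystatin of cytotoxic and myeloid cells, stood at 24608 TPM in cell 17.

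Rows for the synthetic ERCC spike-in controls also moved with gene number. Their summed TPM ran from 23.2 to 4890 in low cells with a median of 222, and from 0 to 1150 in richer cells with a median of 23.3. The rank correlation with gene number was -0.75 over the 47 cells (Spearman), again a description. ERCC-00130 and ERCC-00074 were above 0 in 1 and 0 low cells, while ERCC-00013 was above 0 in 20. The labels do not say whether spike-ins were added, and the part of these rows in the other values was not tested. Of the reporter rows, YFP was detected in 3 richer cells, up to 294 TPM, and eGFP in 2, up to 2754 TPM, and neither was detected in a low cell.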

How the data were processed

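The table deposited by the authors holds 1 value per gene and cell on a natural log scale, for 21970 mouse genes, 92 spike-in rows and 11 reporter or selection rows in 316 cells. The base was read from the values and is not stated in the labels. Per the submitters' processing notes, HISAT 0.1.6, Salmon 0.3.2 and GRCm38 were used; their roles are not given. Values were turned back to TPM, and differences were taken on log2(TPM + 1), which understates low genes. TPM keeps no depth, so no interval on reads could be given. Near-identical cells (31 with 34, 33 with 36, and ESC 22 with 64, r = 0.942) were averaged, since each pair may be 1 library deposited more than once.

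With 1 sample per group no test was made. Cells were grouped by their titles and the gene cut of 1000, and numbers in titles only name cells. The members and lists were chosen with earlier results of these data known. Named genes were list members, the 10 largest differences each way (the higher class averaging 10 TPM or more, with 25% or more of its cells detecting the gene), the 10 genes detected in the most low cells and the top gene of each low cell, skipping small RNA, ribosomal protein, mitochondrial and predicted genes. Genes with long runs, cells outside that rule and the paired-signal counts were chosen after their values were seen. Trac, Trbc1, Trbc2, Jchain and Ahsp were not analysed here, and some further genes are not reported here; they stay in gene numbers, TPM totals and counts over all genes. Runs and coordinates came from GENCODE M21, which held 21067 of the gene symbols. The difference, marker and run steps were checked on made data with known answers, in part built from FL_HSC cells. Cells chosen for few genes were not simulated. Python 3.11.15, numpy 2.4.6, pandas 2.3.3, scipy 1.17.1, Biopython 1.88 and matplotlib 3.10.9 were used. Alternatives changed cuts, pseudocounts, filters, scaling, marker rules and cells.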

Additional observations from a re-analysis of the deposited data

How the results depend on the processing

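Of 548 alternative values for 45 results, 514 stayed within the spread between cells, the interval or 1.5 times the main count, 34 moved, and no difference larger than the spread between cells reversed. Smaller list differences turned sign 10 times in 3 lists (dendritic, NK and B cell, -0.06, -0.06 and 0.005 in the main comparison); 10 of 29 settings were chosen after seeing the data. A cut at 800 genes left 17 low cells and turned the order of the mitochondrial medians, from 27.95% in low and 20.005% in richer cells to 14.4% and 23.6%. With 2 markers enough, 73.1% of low cells showed the granulocyte list. Without the 4 globins 0% showed the erythroid list and 61.5% any blood list. With TPM averaged before the logarithm, list differences (low minus richer, log2) became -2.82 for monocytes, 0.39 for dendritic cells, -0.73 for megakaryocytes, -2.68 for mast cells, -1.99 for eosinophils, -1.03 for HSC, -0.47 for stroma, -0.16 for housekeeping, -6.44 for class II, -3.33 for immediate early genes, -1.92 for p53 targets, -0.96 for interferon and -1.12 for Notch. With genes of mean TPM of at least 10 only, they became -0.34 for dendritic cells, -0.53 for megakaryocytes, 1.71 for B cells (Ebf1 alone), -0.88 for HSC, -0.96 for pluripotency, -0.45 for stroma, -0.83 for interferon and -1.10 for Notch. Genes higher by 1 numbered 112 with a pseudocount of 0.1, 36 with 10, 1192 with means before the logarithm and 124 in even-numbered cells; genes lower by 1 numbered 3912, 628 and 5186 in the first 3. The share of TPM in long-run genes in richer cells, 2.89% for runs of 25 bases, was 5.99% for 20 and 0.474% for 30. The cause of these moves was not tested. No paired analysis was possible because low and richer cells come from 1 group and the numbers only name cells. Depth is unknown, so a gene at 0 in a low cell was not detected there and may still have been present.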
